A study of Mus musculus with 6 samples.

Results

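Interferon-stimulated genes and interferon-inducible GTPases were compared between the livers of Balb/cBy and Balb/c mice. The set was defined by a list of 39 gene symbols, and each gene was represented by the probe set with the highest mean among those that the platform annotation assigns to that symbol alone. In this way 36 of the 39 genes were measured, among 22180 genes in all. Gbp2 and Dtx3l share their probe set with a second symbol and Ifi44 has no listed probe set, so these 3 are not analysed here.

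The study measured total RNA from whole liver of male mice with 1 Affymetrix array for each mouse. The first group was Balb/cBy, which the series labels KD (n = 3), and the other was Balb/c, which it labels WT (n = 3). All 6 mice began a diet with 58% of energy as fat at 8 weeks of age, were kept on it for 12 weeks and were 20 weeks old at sampling, so the high-fat diet is shared by both groups. What KD stands for is not spelled out in the labels, which mention no treatment with interferon or a virus; BALB/cBy is a substrain known to carry a deletion in Acads, a gene of fatty acid oxidation, and it can differ from Balb/c at other loci too.

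Across genes, Pearson correlations between arrays lay between 0.977 and 0.990 inside a group and between 0.977 and 0.991 across the groups. As a check of the labels, Acads read 10.60, 10.79 and 10.93 in Balb/cBy and 11.53, 11.46 and 11.28 in Balb/c, without overlap. Its log2 difference, with Balb/c subtracted from Balb/cBy, was -0.65 ± 0.12 (SE), with an adjusted p of 0.319 by limma, a linear model fitted to all probe sets.

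Interferons are cytokines, and those of type I are released by cells after sensing foreign nucleic acid. Type I interferon signals through the kinases JAK1 and TYK2 to a complex with STAT2 and IRF9, which binds the interferon-stimulated response element (ISRE) of its target genes, while interferon gamma acts on gamma-activated sites (GAS) and induces IRF1. The targets include RNA sensors, proteins that block viral translation and replication, the ubiquitin-like modifier ISG15, and in the mouse large families of GTPases that attack the vacuoles of intracellular parasites. In liver, hepatocytes, Kupffer cells and endothelial cells all respond to interferon. In these bulk samples more cells of one type and more RNA per cell cannot be told apart.

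Most of the measured interferon genes read slightly higher in Balb/cBy liver, and none differed past the adjusted threshold. Of the 36 genes, 31 had the higher mean in Balb/cBy and 5 had the lower (Bst2, Eif2ak2, Ifit3, Parp14 and Ifih1). The share of all genes with the higher mean in Balb/cBy was 49.1%, and it was 57.3% among the 10849 genes that lay above the olfactory receptor level in both groups. That level, 8.02 on the log2 scale, is the 95th percentile of the mean levels of 1105 olfactory receptor genes and stands in for background, which the table does not hold. The median difference of the 36 genes, Balb/cBy minus Balb/c, was 0.11 on the log2 scale, against -0.0028 over all genes and 0.022 over the genes above the olfactory receptor level. Limma's Benjamini-Hochberg adjusted p was below 0.05 for 0 of the 36 genes and for 0.0% of all genes. With array weights limma called 31 probe sets over all genes and 0 of the 36. At an unadjusted p under 0.05 there were 8 of the 36 higher and 0 lower in Balb/cBy. The same threshold held 2.59% of all genes on the higher side, 3.74% of those above the olfactory receptor level, and 1.15% of all genes on the lower side. The 8 were Stat2, Usp18, Isg15, Xaf1, Isg20, Igtp, Rtp4 and Irgm1. In 6 of the 36, all 3 Balb/cBy arrays read above all 3 Balb/c arrays, and the reverse was seen in 0; the first pattern held for 4.32% of all genes and for 5.69% of those above the olfactory receptor level, and the second for 3.51% of all genes. The pooled within-group SD had a median of 0.19 over the 36 genes and 0.14 over all genes.

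**Figure D1:**
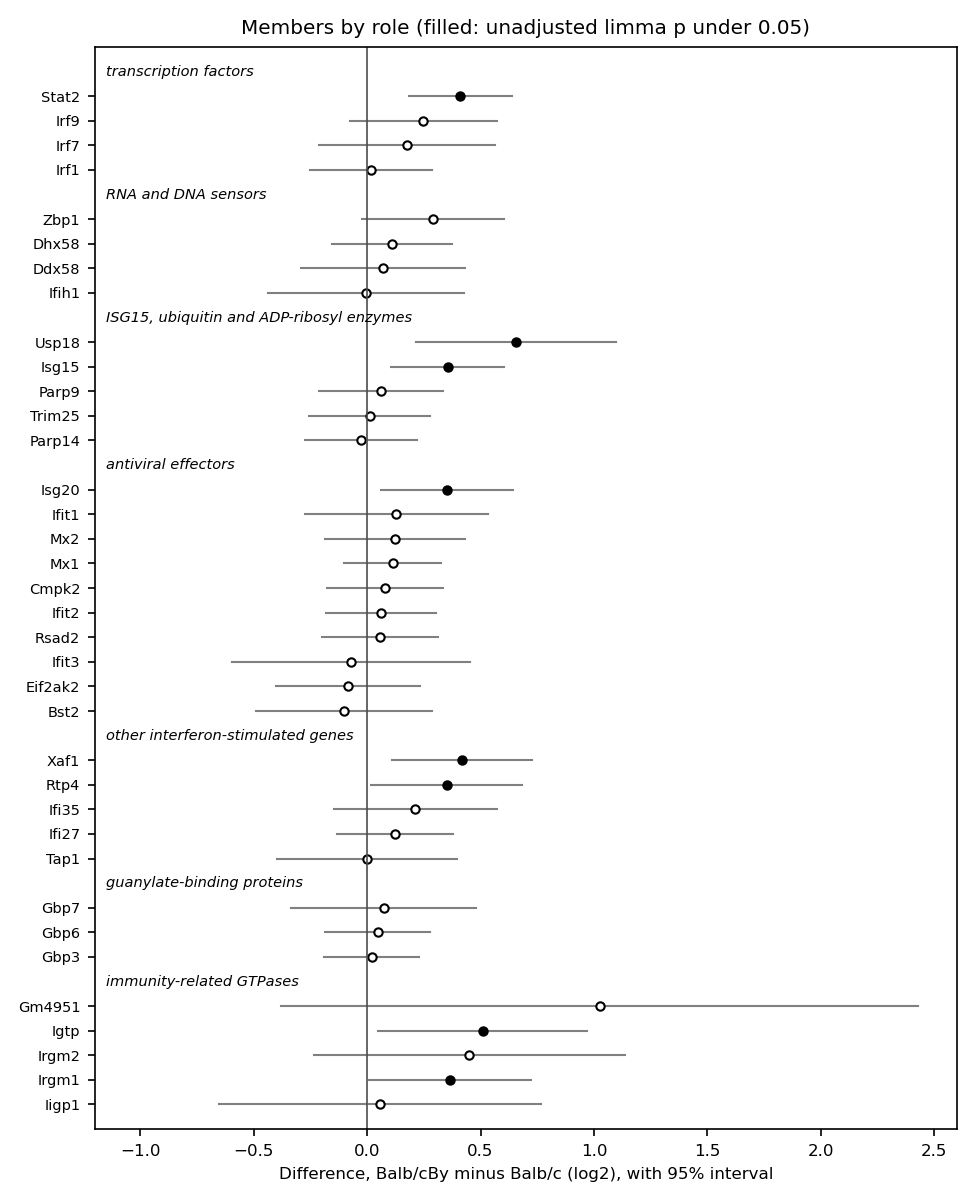
Difference of each of the 36 genes on the x axis, Balb/cBy minus Balb/c in log2 units, grouped by role, with dots for the estimates and bars for limma's 95% interval (3 arrays per group). Filled dots mark the 8 genes with an unadjusted p under 0.05; 31 of the 36 dots lie right of 0, and the bar of Gm4951 is the widest.

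Matches to the 2 response elements were read from the RefSeq promoter table of GRCm38.p6. It holds C57BL/6J sequence from 250 bases before to 50 bases after each annotated start and not that of either Balb substrain. Of the 36 genes, 24 had an entry. The ISRE was searched as GAAA, any 2 bases and GAAA again, and the GAS as TTCNNNGAA, on both strands; the 2 patterns can lie side by side, and overlapping matches of 1 pattern were all kept. An ISRE match was present in 14 of the 24 genes, against 3.99% of the 27025 genes with an entry, and a GAS match in 9, against 9.55%. Both were present in 5 and neither in 6. The first 5 stretches belong to genes with an unadjusted p under 0.05 and are printed 5′ to 3′ on the strand of the gene, with the matches in capitals.
Stat2 (chr10:128270261-128270300, + strand): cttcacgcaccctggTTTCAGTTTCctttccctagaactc
Isg15 (chr4:156200860-156200911, - strand): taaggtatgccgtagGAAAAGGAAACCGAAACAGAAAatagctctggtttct
Irgm1 (chr11:48871421-48871465, - strand): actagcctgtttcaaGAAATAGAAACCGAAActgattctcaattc
Igtp (chr11:58199496-58199546, + strand): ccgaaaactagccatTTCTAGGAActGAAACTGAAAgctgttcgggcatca
Isg20 (chr7:78913336-78913374, + strand): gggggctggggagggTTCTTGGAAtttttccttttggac
Stat2, Isg15, Irgm1 and Igtp hold an ISRE match, which is tripled by overlap in Isg15 and doubled in Irgm1, and Isg20 holds a GAS match. Xaf1, the other of the 8 with an entry, has neither in its window, and Usp18 and Rtp4 had no entry. Matches of the same kind stand before genes whose level hardly differed between the substrains, and the next 6 stretches show some of these beside Irgm2.
Irgm2 (chr11:58214887-58214937, + strand): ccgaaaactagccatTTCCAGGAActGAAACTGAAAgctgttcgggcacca
Ifit1 (chr19:34640770-34640828, + strand): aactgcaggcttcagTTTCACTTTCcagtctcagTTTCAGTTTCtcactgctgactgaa
Ifit3 (chr19:34583358-34583431, + strand): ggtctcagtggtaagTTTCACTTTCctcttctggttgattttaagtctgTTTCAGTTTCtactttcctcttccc
Gbp3 (chr3:142559984-142560029, + strand): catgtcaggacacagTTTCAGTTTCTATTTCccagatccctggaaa
Gbp7 (chr3:142530215-142530307, + strand): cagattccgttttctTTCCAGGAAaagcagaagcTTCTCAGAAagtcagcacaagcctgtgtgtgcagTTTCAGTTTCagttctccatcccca
Irf1 (chr11:53769909-53769947, + strand): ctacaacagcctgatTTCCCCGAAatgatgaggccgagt
The stretches of Igtp and its neighbour Irgm2 are 51 bases long, carry a GAS match and an ISRE match at the same spacing and are identical at 49 bases. Across the 24 genes, the median difference in level was 0.071 on the log2 scale for the 14 with an ISRE match and 0.13 for the 10 without one. It was 0.073 for the 9 with a GAS match and 0.079 for the 15 without. The matches are a description of the reference sequence and do not show that a factor binds there.

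All 4 transcription factors had the higher mean in Balb/cBy, and Stat2 was the 1 with an unadjusted p under 0.05. Stat2, the subunit that gives the type I complex its activation domain, had log2 levels of 9.72, 9.89 and 9.89 on the Balb/cBy arrays, against 9.32, 9.50 and 9.45 on the Balb/c arrays. The groups did not overlap, and the gap between them was wider than either group's own range. Its mean was 9.83 ± 0.10 in Balb/cBy and 9.42 ± 0.09 in Balb/c (SD, n = 3 each), a difference of 0.41 ± 0.10 (SE) or 1.33-fold, with an unadjusted limma p of 0.00301, the smallest of the 36, and a Benjamini-Hochberg adjusted p of 0.870. Irf9, the DNA-binding partner of STAT2, read 9.65, 9.77 and 9.66 in Balb/cBy and 9.39, 9.20 and 9.74 in Balb/c. Here Balb/c replicate 3 lay among the Balb/cBy arrays, and the difference was 0.25 ± 0.14 (SE). Irf7, the factor that amplifies interferon alpha production, read 9.31, 9.78 and 9.77 in Balb/cBy and 9.69, 9.45 and 9.20 in Balb/c, with overlapping groups and a difference of 0.17 ± 0.17 (SE). Irf1, a factor induced by interferon gamma, averaged 9.06 in Balb/cBy and 9.04 in Balb/c, and its 95% interval ran from -0.25 to 0.29.

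The cytosolic sensors of nucleic acid showed no member at an unadjusted p under 0.05. Zbp1, a sensor of left-handed nucleic acid that can trigger necroptosis, came nearest, with 9.15, 9.23 and 8.98 in Balb/cBy against 8.91, 9.02 and 8.56 in Balb/c. The third Balb/cBy array lay below the second Balb/c array, and the difference was 0.29 ± 0.14 (SE). Ifih1 and Ddx58, which encode the RNA helicases MDA5 and RIG-I, behaved alike on 1 array. Ifih1 read 8.90, 9.02 and 9.09 in Balb/cBy and 8.84, 8.71 and 9.47 in Balb/c. Ddx58 read 9.18, 9.23 and 9.05 in Balb/cBy and 8.93, 8.87 and 9.45 in Balb/c. For both genes Balb/c replicate 3 was the highest of the 6 arrays and the other Balb/c arrays were the lowest 2. Dhx58, the helicase LGP2 that regulates both, differed by 0.11 ± 0.11 (SE).

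ISG15 and the protease that removes it were the leading pair among the enzymes of conjugation. Usp18, which cleaves ISG15 from its targets and also blocks the type I receptor, had log2 levels of 9.38, 9.99 and 9.53 in Balb/cBy and 8.91, 8.74 and 9.28 in Balb/c. The lowest Balb/cBy array lay just above the highest Balb/c array. Its mean was 9.63 ± 0.32 in Balb/cBy and 8.98 ± 0.28 in Balb/c (SD, n = 3 each), a difference of 0.66 ± 0.19 (SE) or 1.58-fold, with an adjusted p of 0.999 by limma. Isg15, the modifier itself, read 7.61, 7.93 and 7.84 in Balb/cBy against 7.40, 7.47 and 7.45 in Balb/c. The groups did not overlap and the difference was 0.36 ± 0.11 (SE), but both means lay under the olfactory receptor level. The ubiquitin ligase Trim25, which activates RIG-I, differed by 0.01 ± 0.12 (SE). Parp9 and Parp14, ADP-ribosyltransferase family members induced by interferon, differed by 0.06 ± 0.12 and -0.03 ± 0.11 (SE).

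The antiviral effectors were mixed in direction, with 7 of 10 higher and 3 lower in Balb/cBy and a median difference of 0.070. Isg20, an exonuclease of RNA, was the 1 effector with an unadjusted p under 0.05. It read 8.67, 8.75 and 8.94 in Balb/cBy and 8.66, 8.37 and 8.28 in Balb/c, where the first Balb/c array lay just under the lowest Balb/cBy array. The difference was 0.35 ± 0.13 (SE). Ifit1, which binds viral RNA caps, read 9.08, 9.06 and 8.84 in Balb/cBy and 8.61, 8.71 and 9.27 in Balb/c, a difference of 0.13 ± 0.17 (SE). The Balb/c group held both the lowest and the highest value of Ifit1. Ifit3, its partner, read 8.32, 8.47 and 7.52 in Balb/cBy and 8.12, 8.08 and 8.31 in Balb/c. Balb/cBy replicate 3 stood alone below the other arrays, and the difference was -0.07 ± 0.23 (SE). Rsad2, which encodes viperin, and its neighbour Cmpk2, a mitochondrial nucleotide kinase, differed by 0.06 ± 0.11 and 0.08 ± 0.11 (SE). Bst2, the membrane tether that holds back budding virions, read 8.73, 9.21 and 9.14 in Balb/cBy and 9.25, 9.30 and 8.83 in Balb/c, a difference of -0.10 ± 0.17 (SE). Eif2ak2, the RNA-activated kinase PKR, differed by -0.08 ± 0.14 (SE). The dynamin-like GTPases Mx1 and Mx2 differed by 0.11 ± 0.09 and 0.12 ± 0.13 (SE). Mx1, Mx2, Ifit2, Rsad2 and Eif2ak2 had both means under the olfactory receptor level. Many inbred mouse strains are known to carry defective Mx1 alleles.

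Of 5 further interferon-stimulated genes, Xaf1 and Rtp4 had an unadjusted p under 0.05. Xaf1, which binds the apoptosis inhibitor XIAP, read 8.54, 8.89 and 8.92 in Balb/cBy against 8.19, 8.42 and 8.49 in Balb/c. The groups did not overlap, and the difference was 0.42 ± 0.13 (SE) or 1.33-fold. Rtp4, a chaperone of receptor transport with antiviral activity, read 9.48, 9.34 and 9.20 in Balb/cBy and 9.01, 8.72 and 9.24 in Balb/c. Balb/c replicate 3 lay above the lowest Balb/cBy array, and the difference was 0.35 ± 0.14 (SE). Ifi27, the brightest of the 36 genes at a mean of 10.72 in Balb/cBy and 10.60 in Balb/c, differed by 0.12 ± 0.11 (SE). Ifi35, a partner of NMI, has 2 probe sets, which gave 0.21 and 0.18. Tap1, the peptide transporter of MHC class I loading, differed by 0.00 ± 0.17 (SE), and each group held 1 array well above its others.

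**Figure D2:**
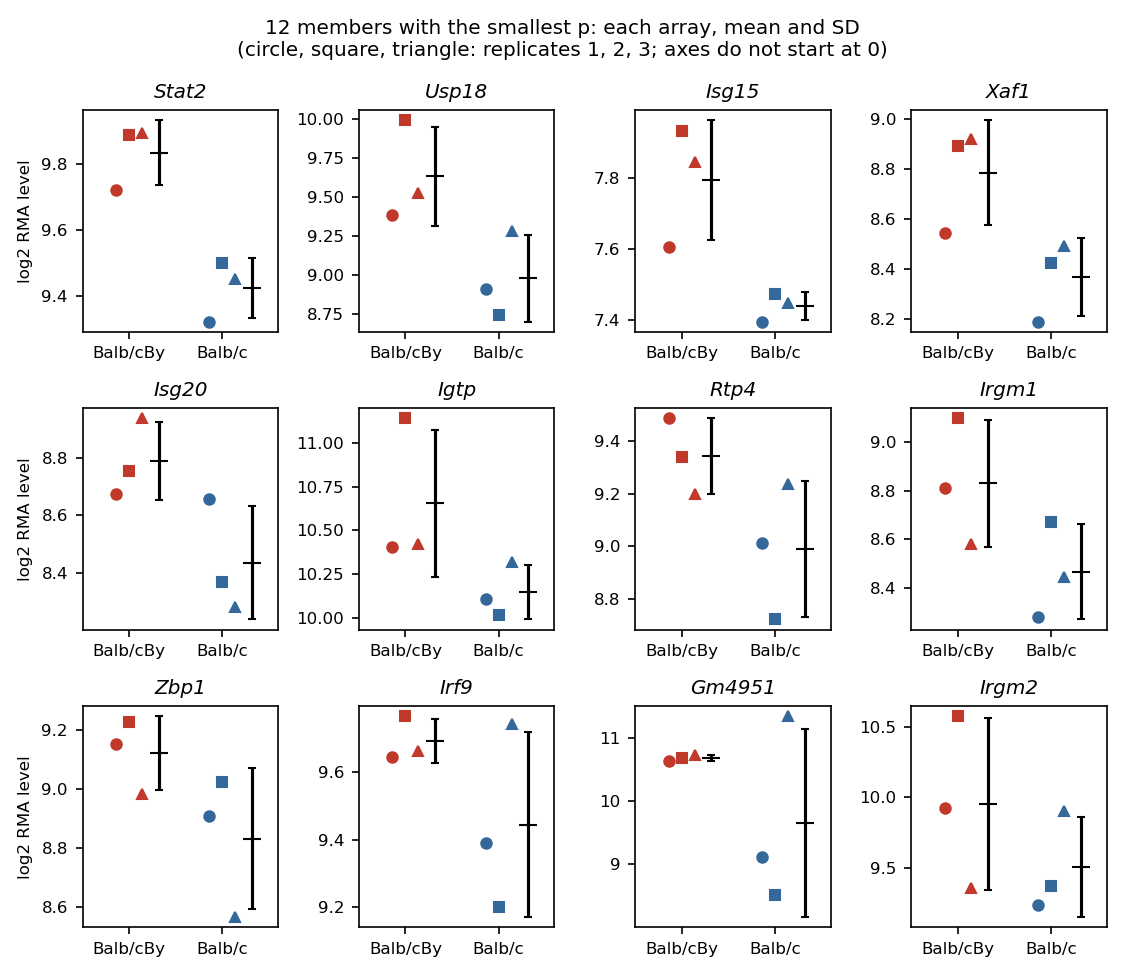
Log2 RMA level (y axis, which does not start at 0) of the 12 genes with the smallest p, with Balb/cBy arrays left of Balb/c arrays and the mean and SD beside each group (n = 3 each). The groups do not overlap in Stat2, Usp18, Isg15, Xaf1, Isg20 and Igtp, while Gm4951 shows 3 near-equal Balb/cBy arrays and a Balb/c group split between 8.51 and 11.34.

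The immunity-related GTPases, which in the mouse load onto the vacuoles of intracellular pathogens, included the largest difference of the 36 genes, in Gm4951, and the 3 widest pooled SDs, in Gm4951, Iigp1 and Irgm2. All 5 had the higher mean in Balb/cBy, with a median difference of 0.45. Igtp, also called Irgm3, had log2 levels of 10.40, 11.14 and 10.42 in Balb/cBy and 10.11, 10.01 and 10.32 in Balb/c. Balb/cBy replicate 2 stood above the rest, and the other Balb/cBy arrays were just above the highest Balb/c array. Its mean was 10.66 ± 0.42 in Balb/cBy and 10.15 ± 0.16 in Balb/c (SD, n = 3 each), a difference of 0.51 ± 0.20 (SE) or 1.42-fold, with an adjusted p of 0.999 by limma. Irgm2, its neighbour in the genome, read 9.92, 10.58 and 9.36 in Balb/cBy and 9.23, 9.37 and 9.91 in Balb/c. The same Balb/cBy array led, but the groups overlapped and the difference was 0.45 ± 0.30 (SE). Irgm1, a regulator of the other family members, read 8.81, 9.10 and 8.58 in Balb/cBy and 8.28, 8.67 and 8.45 in Balb/c, a difference of 0.36 ± 0.16 (SE) with 1 array of each group in the other's range. Without Balb/cBy replicate 2, the differences were 0.27 for Igtp, 0.14 for Irgm2 and 0.23 for Irgm1.

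Gm4951 and Iigp1, effector GTPases of the same family that lie close together in the genome, followed another pattern. Gm4951 read 10.64, 10.68 and 10.72 in Balb/cBy and 9.11, 8.51 and 11.34 in Balb/c. The Balb/cBy mice were almost equal, while the Balb/c mice held the lowest 2 values and the highest value of the 6. The mean was 10.68 ± 0.04 in Balb/cBy and 9.66 ± 1.49 in Balb/c (SD, n = 3 each), a difference of 1.03 ± 0.61 (SE), or 2.04-fold, with an adjusted limma p of 0.999 and a 95% interval from -0.38 to 2.43. Its pooled within-group SD of 1.05 was larger than that of 99.9% of all genes. Leaving out Balb/c replicate 3 gave a difference of 1.87 (adjusted p = 0.0588 by limma), and leaving out Balb/c replicate 2 gave 0.45. Without the lowest-weight array of each group, Balb/cBy replicate 1 and Balb/c replicate 3, the difference was 1.89 (adjusted p = 0.0491 by limma). Over all genes limma called 2 probe sets without Balb/c replicate 3 and 16 without the lowest-weight arrays. Both fits leave out the array with the highest value of Gm4951. Iigp1, also called Irga6, had 10.53, 10.35 and 10.27 in Balb/cBy and 9.72, 10.13 and 11.12 in Balb/c. Balb/c replicate 3 was again the highest and the other Balb/c arrays the lowest, and the group means differed by 0.06 ± 0.31 (SE).

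Of the guanylate-binding proteins, the other family of interferon-inducible GTPases, the 3 in the set differed by under 0.1 on the log2 scale. Gbp7 read 8.08, 8.73 and 8.57 in Balb/cBy and 8.28, 8.28 and 8.61 in Balb/c, a difference of 0.07 ± 0.18 (SE). Gbp3 and Gbp6 differed by 0.02 ± 0.09 and 0.05 ± 0.10 (SE), and both lay under the olfactory receptor level. The highest upper bound of limma's 95% intervals among the 3 was 0.48, for Gbp7. In the wider list of interferon-induced genes, 5 further members of the family were measured, named here after their values were seen. Gbp10, at a mean of 10.19 in Balb/cBy and 10.43 in Balb/c, differed by -0.24 ± 0.19 (SE), and its groups overlapped. Gbp8 differed by -0.46 ± 0.25, Gbp5 by -0.15 ± 0.14, Gbp4 by -0.07 ± 0.22 and Gbp9 by 0.05 ± 0.12 (SE), all 4 under the olfactory receptor level. No test of the difference between the 2 GTPase families was made.

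The members also differed in which array read highest. Balb/cBy replicate 2 was the highest of the 6 arrays for 13 of the 36 genes (36.1%, against 21.7% of all genes) and the lowest for 0 (against 20.6% of all genes). Balb/c replicate 3 was the highest for 11 (30.6%, against 16.3% of all genes). Those 11 were Ifih1, Ddx58, Trim25, Parp14, Ifit1, Ifit2, Rsad2, Mx2, Eif2ak2, Iigp1 and Gm4951, while Usp18, Igtp, Irgm1, Irgm2, Isg15, Irf7, Irf9 and Zbp1 were among the 13 led by Balb/cBy replicate 2. Balb/c replicates 1 and 2 were each the lowest array for 11 genes (30.6%, against 11.6% and 17.3% of all genes) and each the highest for 1. The mean deviation of the 5 immunity-related GTPases from their gene means was 0.20, 0.51 and 0.010 on the Balb/cBy arrays and -0.57, -0.52 and 0.37 on the Balb/c arrays. The value of Balb/c replicate 3 came mainly from Gm4951 and Iigp1, while Igtp and Irgm1 lay below their gene means on that array. The mean deviation of the 4 transcription factors was -0.058, 0.18 and 0.20 in Balb/cBy and -0.10, -0.13 and -0.092 in Balb/c, where Balb/cBy replicate 1 lay nearer to the Balb/c arrays.

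**Figure D3:**
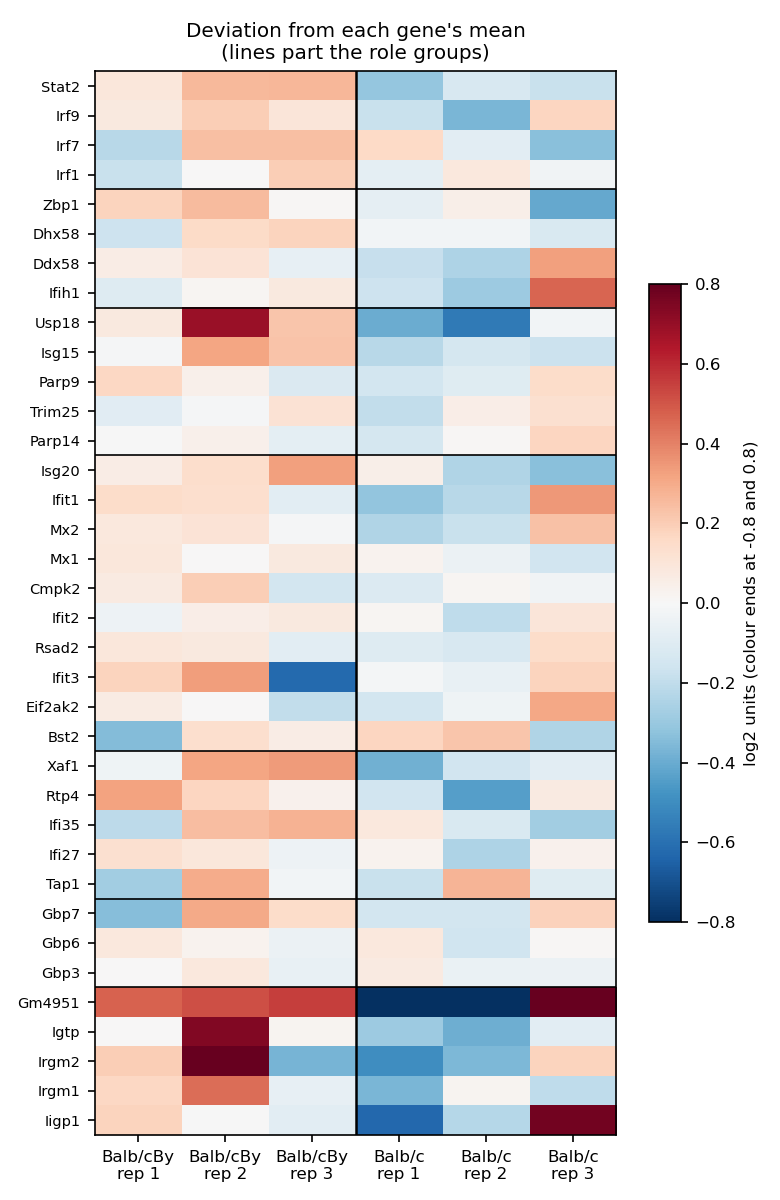
Deviation of each array (columns) from the mean of each gene (36 genes down the page, parted by role), in log2 units, with colours that end at -0.8 and 0.8. Balb/cBy replicate 2 is red for most genes, Balb/c replicates 1 and 2 are blue for most, and Balb/c replicate 3 is red for Gm4951, Iigp1, Ifih1 and Ifit1 but blue for Zbp1 and Isg20.

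Leaving out single arrays moved the size of the median difference and not its sign. The median difference stayed between 0.084 and 0.16, and between 26 and 34 of the 36 genes read higher in Balb/cBy. Per array, the median deviation of the 36 from their gene means was 0.069, 0.15 and 0.027 in Balb/cBy. In Balb/c it was -0.15, -0.14 and 0.020, so the third array of each group lay close to the other. The number of genes with an unadjusted p under 0.05 was more sensitive: 4 genes passed it when the first Balb/c array was left out, 5 when the second Balb/cBy array was, and 12 when the third Balb/c array was, all of them higher in Balb/cBy. Without both Balb/cBy replicate 1 and Balb/c replicate 3, chosen after seeing the data for their low weight, 33 of the 36 read higher, the median was 0.22 and 14 had an unadjusted p under 0.05. Over all genes limma called 16 probe sets past the adjusted threshold in that fit, against 0 with all arrays. No share of all genes at an unadjusted p under 0.05 is given for the fits with arrays left out. Whether the changes in these counts are particular to the interferon genes was therefore not tested. The sign of 21 genes held whichever array was left out, all of them higher in Balb/cBy, and that of the other 15 turned at least once.

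**Figure D4:**
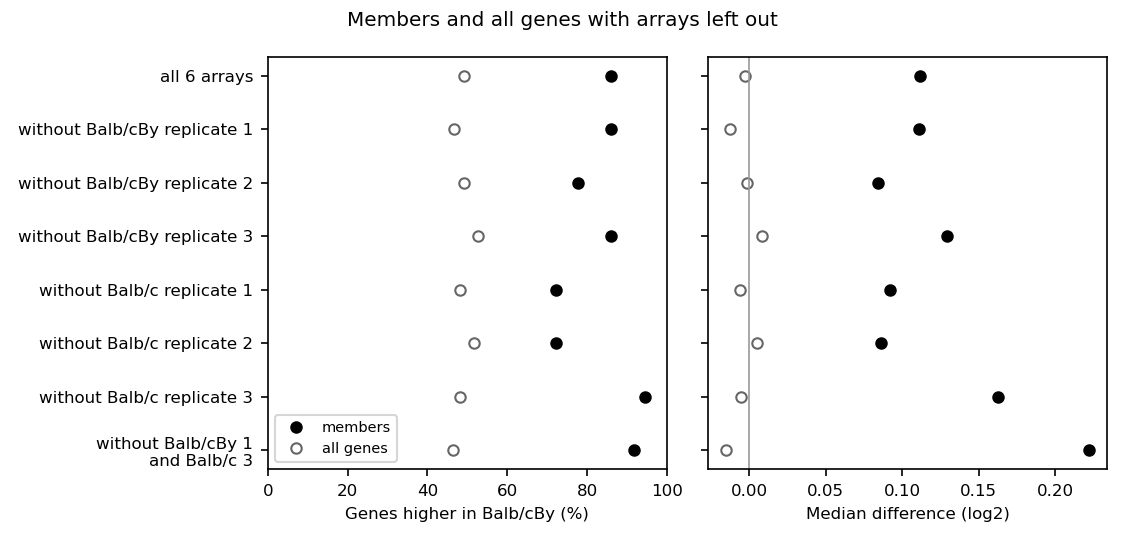
Share of genes with the higher mean in Balb/cBy (left, percent) and median difference in log2 units (right) with all 6 arrays and with arrays left out, for the 36 interferon genes (filled) and all genes (open). The filled points run from 72.2% to 94.4% and the open points stay between 46.3% and 52.6%.

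The upstream genes of the pathway, from lists chosen by function, gave 0 members past limma's adjusted threshold in either direction. For comparison, 49.1% of all genes had the higher mean in Balb/cBy, and 57.3% of those above the olfactory receptor level. On the higher side, 2.59% of all genes had an unadjusted limma p under 0.05, and 3.74% of those above that level. Of 19 measured interferon genes, 8 had the higher mean in Balb/cBy and 11 the lower, with a median difference of -0.0085 and 0 at an unadjusted p under 0.05. The nearest were Ifna9 at -0.25 ± 0.12 and Ifna15 at 0.22 ± 0.14 (SE). Ifnb1 differed by -0.13 ± 0.12 and Ifng by -0.07 ± 0.10 (SE). Ifna9, Ifnb1 and Ifng were among the 11 of the 19 that lay under the olfactory receptor level in both groups. Of 9 receptor and kinase genes 7 were higher, with a median of 0.042 and 0 at an unadjusted p under 0.05 by limma. Ifnlr1, the receptor subunit of interferon lambda, differed by -0.20 ± 0.10 and Ifnar1, of the type I receptor, by 0.16 ± 0.12 (SE). Of 10 measured adaptors, kinases and receptors of nucleic acid sensing 9 were higher, and 3 had an unadjusted p under 0.05. Ikbke, a kinase that phosphorylates IRF3 and IRF7, read 9.31, 9.46 and 9.47 in Balb/cBy and 9.21, 9.15 and 9.08 in Balb/c, without overlap, a difference of 0.27 ± 0.09 (SE). Tlr7, the endosomal receptor for single-stranded RNA, read 7.71, 8.23 and 8.17 in Balb/cBy and 7.64, 7.68 and 7.71 in Balb/c, where 1 Balb/cBy array lay among the Balb/c values, a difference of 0.36 ± 0.14 (SE). Of 9 negative regulators, with Usp18 among them, 7 were higher, and Ptpn2, a phosphatase of JAK1, differed by 0.26 ± 0.10 (SE). Of 5 further STAT and IRF factors 2 were higher, with Stat3 nearest to the threshold at 0.32 ± 0.14 (SE) and Irf4 next at -0.13 ± 0.13 (SE).

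A wider list held other interferon-induced genes. Of 48 measured, 30 (62.5%) had the higher mean in Balb/cBy and 18 the lower, with a median of 0.062. The share was 49.1% of all genes and 57.3% of those above the olfactory receptor level, where 32 of the 48 lay. The unadjusted limma p was under 0.05 for 3 higher (6.25%, against 2.59% of all genes) and 1 lower (against 1.15% of all genes). Lgals3bp, a secreted glycoprotein, read 10.78, 10.97 and 10.87 in Balb/cBy and 10.59, 10.52 and 10.45 in Balb/c, a difference of 0.35 ± 0.10 (SE). Cxcl9, a chemokine induced mainly by interferon gamma, ran the other way, with 8.85, 9.59 and 9.41 in Balb/cBy against 11.47, 10.38 and 9.75 in Balb/c. The groups did not overlap, the Balb/c arrays were widely spread, and the difference was -1.25 ± 0.39 (SE), with an adjusted p of 0.999 by limma.

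All 8 hepatocyte markers were above the olfactory receptor level. Each summed level below is the log2 of the sum of a list's linear levels, so the brightest genes weigh most. For the hepatocyte markers it was 16.16 to 16.31 in Balb/cBy and 16.20 to 16.29 in Balb/c. Of 12 Kupffer cell and macrophage markers 8 were higher in Balb/cBy, and the summed level was 13.74 to 14.02 in Balb/cBy and 13.28 to 14.07 in Balb/c. Balb/c replicate 3, highest for 11 of the interferon genes, had the lowest macrophage sum. Of 11 T and NK cell markers 10 were lower in Balb/cBy (summed level 10.96 to 11.07, against 11.05 to 11.24 in Balb/c), and 8 of the 11 lay under the olfactory receptor level. Of 9 monocyte and dendritic cell markers, which include Bst2, 3 were higher. Their sums were 11.79 to 12.56 in Balb/cBy and 11.82 to 12.46 in Balb/c. Siglech and Ccr9, of plasmacytoid dendritic cells, were among the 5 of the 9 that lay under the olfactory receptor level in both groups. Of 7 neutrophil markers 6 were higher (10.54 to 10.78 in Balb/cBy, 10.36 to 10.64 in Balb/c), but 4 of the 7 lay under the olfactory receptor level in both groups. Of 8 stellate cell markers 7 were higher (13.02 to 13.39 in Balb/cBy, 12.76 to 13.10 in Balb/c). Of 8 sinusoidal endothelial markers 5 were higher (13.10 to 13.29 in Balb/cBy, 13.03 to 13.22 in Balb/c). The sums were 9.82 to 10.13 in Balb/cBy and 9.73 to 9.89 in Balb/c for 5 B and plasma cell markers, of which 2 were higher. For 5 cholangiocyte markers, of which 1 was higher, the sums were 9.96 to 10.27 in Balb/cBy and 10.09 to 10.15 in Balb/c. Under the olfactory receptor level in both groups lay 4 of these 5 cholangiocyte markers. Within the B and plasma cell list 1 of the 5 was higher and 3 were lower without overlap, against 4.32% and 3.51% of all genes. Jchain, the joining chain of polymeric antibodies, differed by 1.12 ± 0.28 (SE). Ms4a1, Cd79b and Cd79a, of B cells, differed by -0.27 ± 0.09, -0.27 ± 0.10 and -0.17 ± 0.10 (SE). Mzb1 differed by 0.06 ± 0.12 (SE), and its groups overlapped. Of these 5 genes, 0 lay above the olfactory receptor level in both groups. The stellate cell genes Lum and Dcn, which encode matrix proteoglycans, differed by 0.53 ± 0.12 and 0.48 ± 0.14 (SE), with no overlap between the groups. The other stellate markers differed less, Reln by 0.36 ± 0.21 and Lrat by 0.23 ± 0.20 (SE). Col1a2 differed by 0.03 ± 0.11, Des by 0.02 ± 0.11, Col1a1 by 0.01 ± 0.12 and Col3a1 by -0.03 ± 0.12 (SE). The part of cell makeup in the interferon gene differences was not tested.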

How the data were processed

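Per the submitters' processing notes, the deposited values were made with RMA, which corrects background, quantile-normalizes arrays and summarizes probes; the authors' software, version and genome build are not stated there. The deposited table holds log2 values of 41345 probe sets, from 3.31 to 14.84. Per the labels' protocols, cDNA was labelled from 500 ng of Trizol-extracted RNA. The platform annotation gives 1 symbol to 23521 probe sets of 22180 genes; these were tested.

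Limma 3.58.1 in R 4.3.3 was fitted with the substrain as its single term and empirical Bayes moderation. Differences are Balb/cBy minus Balb/c. Tests were two-sided, adjusted by Benjamini-Hochberg over the 23521 probe sets at 0.05. The fit was also run on simulated data with planted changes larger than nearly all differences reported here. That run does not show whether smaller changes could be detected. With 3 arrays per group, called biological replicates in the labels, their number limits the precision. The genes and lists were chosen with earlier results of these data known. By rule, all arrays are given for the 12 members with the smallest p and the leading members of each role, and the 2 genes of smallest p in each pathway list are named with at least their difference; Iigp1, Ifih1, Ddx58, Ifit1, Ifit3, Bst2, Irf7, Gbp7, Ifnb1, Ifng, further guanylate-binding protein genes and single cell type markers were chosen after their values were seen. 2 list genes were found through their gene ID. Alternatives were trend with robust moderation, array weights, a replicate block, renewed quantile normalization, median centring, brighter probe sets alone, averaged probe sets, every probe set, and leaving out arrays.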

Additional observations from a re-analysis of the deposited data

How the results depend on the processing

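None of the 36 genes passed limma's adjusted threshold under any planned setting. An alternative added after the data were seen left out the lowest-weight array of each group. There 1 of the 36 passed (Gm4951), among 16 probe sets called over all genes. The Balb/c array left out held the highest value of Gm4951. The median difference of the 36 was 0.22, and 14 were higher at an unadjusted p under 0.05. Leaving out 1 array gave 0 genes past the threshold, 26 to 34 of 36 higher in Balb/cBy, a median of 0.084 to 0.16, and 4 to 12 higher at an unadjusted p under 0.05. For the fits with arrays left out, no share of all genes at that unadjusted p is given beside the counts. The replicate block left 31 of 36 higher, a median of 0.11 and 7 at an unadjusted p under 0.05, and changed no call; same-numbered arrays did not deviate together (correlations -0.32, -0.19 and -0.23), so the numbers were not taken as a pairing. Renewed quantile normalization left 27 higher with a median of 0.075. Only small differences turned sign: Ifih1 to 0.12 and Parp14 to 0.0080 with array weights, where Gbp3 was -0.041 and Gbp6 -0.027; Ifih1 to 0.28 and Parp14 to 0.050 without the lowest-weight arrays; Ifih1 to 0.0030 with median centring; and Irf1 to -0.042, Trim25 to -0.051, Tap1 to -0.079 and Iigp1 to -0.024 with renewed quantile normalization. With 1 array left out, the range was -0.080 to 0.11 for Irf1, -0.15 to 0.23 for Ifih1, -0.037 to 0.25 for Ddx58, -0.085 to 0.079 for Trim25, -0.0077 to 0.15 for Parp9, -0.10 to 0.054 for Parp14, -0.025 to 0.12 for Ifit2 and -0.25 to 0.22 for Ifit3. It was -0.18 to 0.049 for Eif2ak2, -0.25 to 0.048 for Bst2, -0.15 to 0.14 for Tap1, -0.017 to 0.061 for Gbp3, -0.023 to 0.10 for Gbp6, -0.061 to 0.26 for Gbp7 and -0.25 to 0.46 for Iigp1. The cause of these changes was not tested. With brighter probe sets alone, 28 of the genes were measured. The number of arrays, and for the 8 genes under the olfactory receptor level the dim signal, limit what could be detected.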
